A study of Mus musculus with 10 samples.

Results

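The Serpin family of protease inhibitors was examined in liver RNA of mice with chronic chemical liver injury, with and without metformin. Members are the genes whose RefSeq mouse symbol starts with Serpin, reached from the transcript accession that the array gives for each probe. Of 69 such symbols in the RefSeq table, 61 had a probe on the array, out of 21613 named genes in all. The letter after Serpin gives the clade (A to I), and the clades are compared by that letter. Serpina1b, Serpina3d-ps, Serpina3e-ps, Serpina3g, Serpina3l-ps, Serpinb1-ps1, Serpinb9h and Serpine3 had no probe matched by accession and were not analysed here.

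All 10 mice were male and carried the miR-221 transgene (strain TG221) on a B6D2F2 background. All were given carbon tetrachloride (CCl4), a liver toxin, at 20% v/v in olive oil by gavage 3 times per week for 14 weeks, from an age of 4 to 6 weeks. In 6 of them metformin, an oral drug for diabetes, was given by mouth each day at 300 mg/kg, starting 3 weeks into the CCl4 course, and the other 4 received CCl4 alone. Livers were taken at the 24-week end-point, and 1 array with 1 dye was run per mouse. Which promoter drives the transgene is not given in the sources used here. The labels name the tissue as liver and the cell type as hepatocellular carcinoma, so how much tumour each piece held is not known. No mouse without CCl4 and no mouse without the transgene was analysed here, so each value below is a difference between 2 groups of injured transgenic livers. The comparison asks which genes differ in livers given metformin on top of CCl4.

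Serpins are proteins that mostly trap and inactivate serine or cysteine proteases: the protease cuts an exposed loop of the serpin, which then snaps into a new shape and carries the enzyme with it. The liver secretes many of them into plasma, among them alpha-1 antitrypsin (Serpina1), antithrombin (Serpinc1), C1 inhibitor (Serping1) and alpha-2 antiplasmin (Serpinf2), which restrain proteases of leukocytes, clotting, complement and fibrin breakdown. Clade B members mostly stay inside cells. Some members inhibit nothing and serve as hormone carriers (Serpina6, Serpina7) or as a chaperone of collagen (Serpinh1). Mice carry several copies of Serpina1 and of Serpina3 where humans carry one of each.

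Levels are the log2 of the scanner's processed intensity minus the 75th percentile of that array, so 0 is the brightness of the spot at that percentile. A difference is metformin plus CCl4 minus CCl4 on this scale. Testing was limited to probes that stood well above background on 75% or more of the arrays in one group or the other. A gene was called when its adjusted p was below 0.05 in a limma fit over all 22184 features tested. The 75th percentile of intensity ranged from 237 to 363 per array, between 51.2% and 54.9% of probes were well above background, and no spot was saturated. The number of arrays limits the precision, and p-values measure the spread between these mice. The 2 groups were on 2 different slides, 1 slide each, so slide and metformin cannot be told apart in any result below. Within the metformin slide, mice 1 and 2 lay in row 1 and mice 3 to 6 in row 2, while all CCl4 arrays lay in row 1. In bulk liver, fewer cells of a type and less RNA per cell cannot be told apart.

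Of the 61 genes on the array, 38 were tested, and 34 of those were well above background on all 10 arrays. One carrier gene rose with metformin, Serpina6, and 6 genes fell: Serpinh1, Serpina5, Serpina9, Serpina1f, Serpinb6b and Serpina3h. The other 31 were not called, so 18.4% of the tested members were called, where 45.4% of all features were (28.0% higher and 17.4% lower). In 3 members, Serpinh1, Serpina5 and Serpina6, the groups did not overlap, where 33.7% of all features showed no overlap. The median difference of the 38 members was -0.03, and that of all features 0.10. The median size of a member's difference was 0.29 with a median SE of 0.18, beside 0.37 and 0.14 for the 14531 named genes tested. In 26 of the 38 the difference was under 0.5 in size, which is 68.4%, against 63.0% of the named genes. Scaled instead to the spike-in control spots, all features shifted down to a median of -0.45. There 18 members were called lower and 0 higher, where 47.6% of all features were called, 43.4% lower and 4.23% higher. Directions below are therefore relative to the bulk of the array, and spike-in values are given beside those that turn. Counts called in each clade and gene list below stand beside the main-fit shares of all features, 28.0% higher and 17.4% lower.

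**Figure D1:**
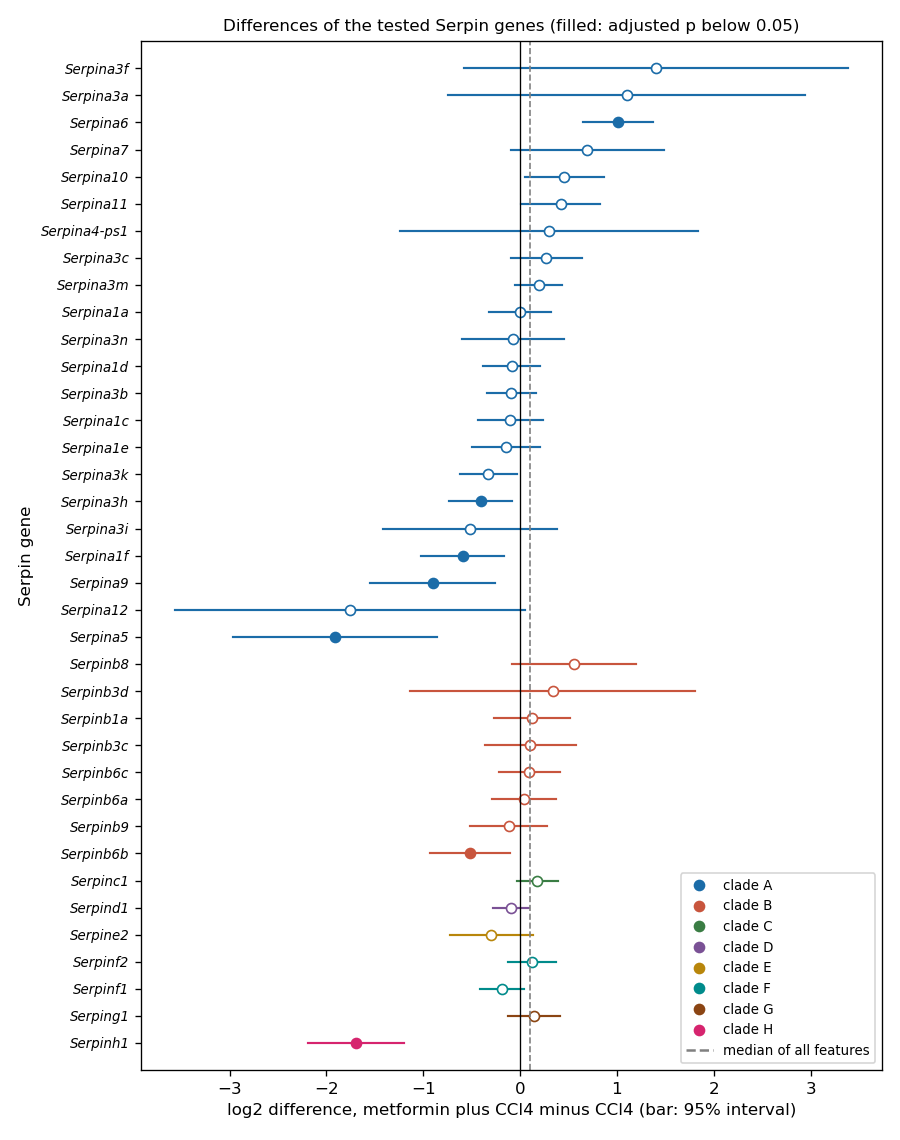
Differences of 37 of the 38 tested Serpin genes in log2 units (metformin plus CCl4 minus CCl4, points with 95% intervals), coloured by clade, with the median of all features at 0.10 as a dashed line. Filled points are the 7 called genes; Serpina3f, Serpina3a and Serpina12 lie as far out as the called genes but have wide intervals.

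Clade H has a single member, Serpinh1, which encodes HSP47, a chaperone of the endoplasmic reticulum that binds procollagen and is needed for its folding. Its level was 0.10, 0.31, 0.57, 0.48, 0.11 and 0.07 in metformin mice 1 to 6 and 1.35, 1.87, 2.68 and 1.96 in CCl4 mice 1 to 4. All 6 metformin livers lay below all 4 CCl4 livers, and the CCl4 livers were the more spread. The means were 0.27 ± 0.21 (SD, n = 6) and 1.97 ± 0.55 (SD, n = 4), a difference of -1.70 ± 0.22 (SE), which is 3.24-fold lower (limma adjusted p = 0.000234). It was called in all 21 alternative settings run, with differences from -2.25 to -1.46. Serpinh1 was also the 1 Serpin gene in the authors' deposited table of 4595 probes, where the group means of 8.35 and 10.1 differ by -1.74.

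The procollagen chains that Serpinh1 serves were lower as well: 6 of the 7 tested fell and 0 rose, with a median of -1.0. Among them Col4a1, a chain of basement membrane collagen, differed by -2.17 ± 0.17 (SE, limma adjusted p = 2.49e-05). Col4a2, its partner chain, differed by -1.36 ± 0.12 (SE, limma adjusted p = 4.09e-05). Col1a1, a chain of fibrillar collagen and the median of the list, missed the threshold with a wider error of 0.42 (SE, limma adjusted p = 0.0733). The summed level of the 7 chains ran from 2.70 to 3.78 in metformin livers and from 4.03 to 4.65 in CCl4 livers, with no overlap. A summed level here is the log2 of the added unlogged levels, so the brightest genes weigh most. Markers of stellate cells, which make most collagen in injured liver, fell in 8 of 9 tested and rose in 0, with a median of -1.11. The largest of these falls were in Reln (-1.59) and Itga8 (-1.55). Their summed level ran from 6.15 to 6.91 with metformin and from 6.74 to 7.30 without, so the groups overlapped. Dcn, by far the brightest of them (mean 6.33 with metformin and 6.86 without), dominates that sum, and its difference was -0.52. One marker of that list, Lox, was not well above background on any array, and the part of these cells in the fall of Serpinh1 was not tested.

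The sequence before the start of Serpinh1 is shown because its fall was called in every alternative run, beside that of Serpina5, which had the largest fall among called members. Both are the 250 bases upstream of the annotated start in RefSeq (build GRCm38.p6), written 5′ to 3′ on the gene's strand: chr7:99353240-99353489, minus strand, and chr12:104100863-104101112, plus strand. Capitals mark the GC box GGGCGG and the heat shock element GAANNTTC, both searched on both strands.
Serpinh1: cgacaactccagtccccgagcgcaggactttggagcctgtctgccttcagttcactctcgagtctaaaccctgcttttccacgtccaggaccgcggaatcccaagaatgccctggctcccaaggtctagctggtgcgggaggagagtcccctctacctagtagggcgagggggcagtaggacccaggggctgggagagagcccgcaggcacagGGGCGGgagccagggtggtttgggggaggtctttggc
Serpina5: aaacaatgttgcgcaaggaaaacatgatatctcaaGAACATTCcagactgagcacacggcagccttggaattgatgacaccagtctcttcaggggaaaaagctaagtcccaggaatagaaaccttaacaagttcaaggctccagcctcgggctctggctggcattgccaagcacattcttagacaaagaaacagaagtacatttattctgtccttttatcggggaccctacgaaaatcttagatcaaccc
The GC box stood in 7 of the 50 members with a promoter in the RefSeq table and in 32.7% of all 32851 promoters. The heat shock element stood in 3 of the 50 (Serpina3c, Serpina5 and Serpinb5) and in 6.69% of all promoters. A match describes the letters and not a site in use.

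**Figure D2:**
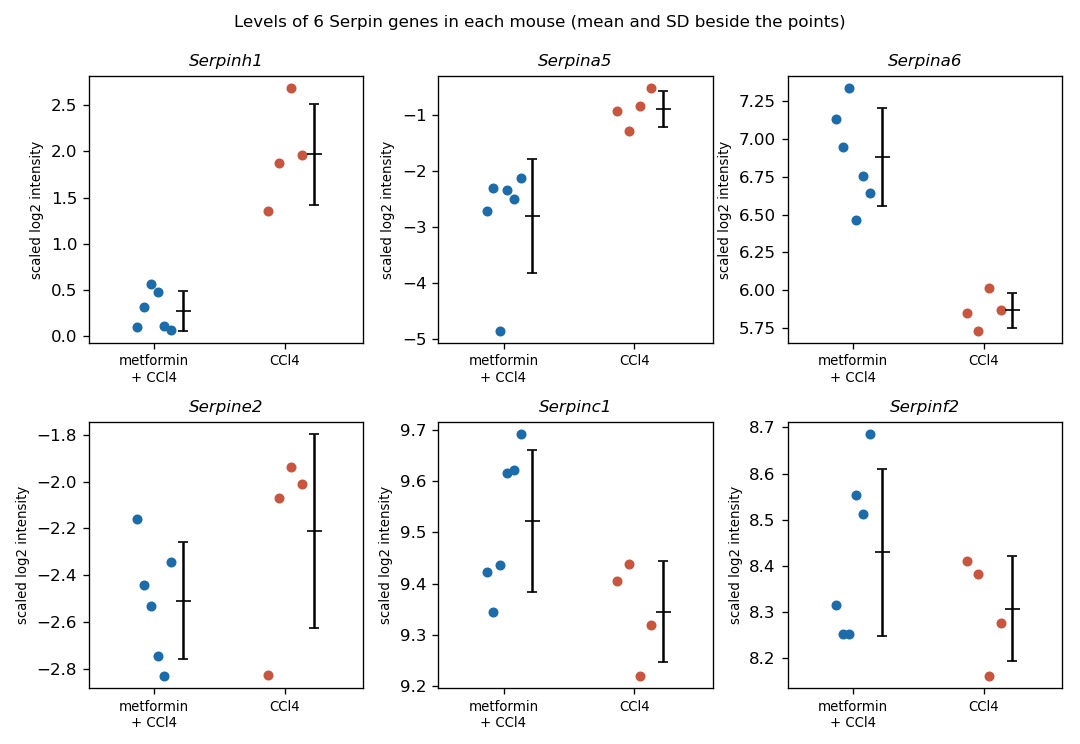
Level of 6 Serpin genes in each mouse (log2 intensity minus the 75th percentile of the array), with the mean and SD beside the points. For Serpinh1 and Serpina5 every metformin mouse lies below every CCl4 mouse and for Serpina6 above, while Serpine2, Serpinc1 and Serpinf2 overlap.

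Clade A includes secreted plasma serpins, though others lie in clades C, F and G. Of the 24 clade A genes on the array 22 were tested. Of these 1 rose, 4 fell and 17 were not called, with a median of -0.08 (all features 0.10). That is 22.7% called, where 45.4% of all features were. Serpina5 encodes the protein C inhibitor, which acts on activated protein C and other proteases. Its level was -2.71, -2.31, -4.85, -2.33, -2.50 and -2.12 in metformin mice 1 to 6 and -0.93, -1.29, -0.83 and -0.51 in CCl4 mice 1 to 4. No metformin liver reached a CCl4 liver, and metformin mouse 3, the lowest, was not well above background. The difference was -1.91 ± 0.48 (SE), 3.76-fold lower (limma adjusted p = 0.00802). Without metformin mouse 3 it was -1.50 (limma adjusted p = 0.000269). With slide row as a covariate it was -1.62 and no longer called (limma adjusted p = 0.0878). In row 1 alone, with 2 metformin and 4 CCl4 arrays, the same difference was called (limma adjusted p = 0.00883). The normexp background correction gave -1.02.

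Serpina6 encodes corticosteroid-binding globulin, the plasma carrier of glucocorticoids. Its level was 7.14, 6.95, 7.34, 6.47, 6.75 and 6.64 in metformin mice 1 to 6 and 5.85, 5.73, 6.02 and 5.87 in CCl4 mice 1 to 4. Every metformin liver exceeded every CCl4 liver. The difference was 1.01 ± 0.16 (SE), 2.02-fold higher (limma adjusted p = 0.000738). A second, dimmer probe gave only 0.31 ± 0.20 (SE, limma adjusted p = 0.234, fitted per probe), with metformin mice 1 to 3 at 5.15, 5.08 and 5.19 and mice 4 to 6 at 4.19, 4.58 and 4.43. By that probe mouse 4 lay below all CCl4 mice, which ran from 4.39 to 4.59. On the spike-in scale the brighter probe gave 0.46 and was not called (limma adjusted p = 0.132). Serpina7, the carrier of thyroid hormone, differed by 0.70 ± 0.36 (SE) and was not called; its metformin livers ran from 1.24 to 3.00 and its CCl4 livers from 1.22 to 1.62.

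Genes around these carriers were listed as a hormone axis of 10, of which 2 rose and 1 fell, with a median of 0.18. Of all features, 28.0% were called higher and 17.4% lower. The fall was in Agt, angiotensinogen, a serpin by structure whose symbol lies outside the rule, at -1.31 ± 0.17 (SE, limma adjusted p = 0.000209). Agtr1a, the angiotensin receptor, differed by 0.54 ± 0.10 (SE, limma adjusted p = 0.00179), but on the spike-in scale by -0.01. Hsd11b1, which regenerates active glucocorticoid, differed by 0.29 ± 0.09 (SE, limma adjusted p = 0.0283), but on the spike-in scale by -0.26.

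Serpina9, Serpina1f, Serpina3h and Serpinb6b also fell, but in each the groups overlapped and the call was lost in part of the 21 alternatives run for each gene. Serpina9, which is known from germinal centre B cells, differed by -0.90 ± 0.29 (SE, limma adjusted p = 0.0267) and was called in 15 of them. Serpina1f, a relative of alpha-1 antitrypsin, differed by -0.59 ± 0.19 (SE, limma adjusted p = 0.0291) and was called in 12. Serpina3h differed by -0.41 ± 0.15 (SE, limma adjusted p = 0.0432) and was called in 10. Serpinb6b differed by -0.52 ± 0.19 (SE, limma adjusted p = 0.0416) and was called in 10. All 6 metformin livers lay below the CCl4 mean in each of these 4 genes. The same values gave the calls, so this count is no separate support for them.

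The alpha-1 antitrypsin copies Serpina1a, Serpina1c, Serpina1d and Serpina1e encode the main plasma inhibitor of neutrophil elastase, and none was called. Their promoters are shown because the scaled levels of the copies moved together from mouse to mouse. Scaling subtracts the 75th percentile of intensity, which was 363 and 351 in metformin mice 1 and 2 and 237 to 276 in mice 3 to 6. Among CCl4 mice it ran from 238 in mouse 2 to 338 in mouse 4, where these genes were highest and lowest. The part of scaling in the shared movement was not tested. Each line gives 80 bases of the 250 before the RefSeq start (build GRCm38.p6, minus strand), at chr12:103863620-103863699, chr12:103904951-103905030, chr12:103773634-103773713 and chr12:103956946-103957025 in that order. Capitals mark CCAAT, read on the other strand as ATTGG, and GTTAAT, the core of the motif of the hepatocyte factor HNF1, each searched on both strands. The ATTGG and GTTAAT overlap by 1 base.
Serpina1a: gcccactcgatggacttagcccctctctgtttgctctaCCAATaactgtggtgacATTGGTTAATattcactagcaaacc
Serpina1c: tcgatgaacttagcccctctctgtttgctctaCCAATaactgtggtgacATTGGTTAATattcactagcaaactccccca
Serpina1d: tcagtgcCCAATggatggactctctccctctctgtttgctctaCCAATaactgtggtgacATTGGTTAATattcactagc
Serpina1e: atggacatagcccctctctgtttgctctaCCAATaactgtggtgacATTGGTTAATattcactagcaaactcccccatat
Over the 6 pairs of copies, local alignments of 183 to 246 positions within the 250 bases were 91.7% to 96.7% identical. GTTAAT stood in 10 of the 50 members with a promoter, 6 of them among the 17 of clade A, and in 6.43% of all promoters. The near-identical Serpina1a, Serpina1c, Serpina1d and Serpina1e are among the 10, so these matches are not independent. CCAAT stood in 17 of the 50 and in 33.8% of all promoters. TATAAA, the TATA box, stood in 14 of the 50 (12.4% of all promoters) and CACGTG, the E-box, in 0 of the 50 (6.02% of all).

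Serpina1a was at 10.13, 10.06, 10.53, 10.59, 10.49 and 10.62 in metformin mice 1 to 6 and at 10.32, 10.68, 10.41 and 10.19 in CCl4 mice 1 to 4. Metformin mice 1 and 2, the row 1 arrays, lay below mice 3 to 6, and the groups overlapped. By the probe used for each gene, the same order held for Serpina1c, Serpina1d and Serpina1e, whose probes can share sequence and are not independent. Serpinc1 was the fifth tested member with both row 1 metformin arrays below all 4 of row 2, an order that 18.6% of all features had. The opposite order was seen in 3 members, Serpina3f, Serpinb1a and Serpinb6c, and in 9.26% of all features. The differences were 0.00 for Serpina1a (95% interval -0.32 to 0.32), -0.10 for Serpina1c (-0.44 to 0.24), -0.09 for Serpina1d (-0.38 to 0.20) and -0.15 for Serpina1e (-0.50 to 0.20). Within row 1, where slide row does not differ between the groups, they were -0.31, -0.42, -0.33 and -0.48. Array brightness was not matched there: the 75th percentile was 363 and 351 with metformin and 310, 238, 289 and 338 without. The part of that scaling in these values was not tested. With slide row as a covariate Serpina1c (limma adjusted p = 0.0459) and Serpina1e (limma adjusted p = 0.0332) passed the threshold, and in row 1 alone neither did (limma adjusted p = 0.0946 and 0.0771). A dimmer probe of Serpina1d was called lower, at -0.41 (limma adjusted p = 0.0120, fitted per probe). By that probe metformin mouse 2 (9.59) lay above mouse 3 (9.56). Its groups did not overlap, with metformin livers up to 9.87 and CCl4 livers from 9.90. On the spike-in scale Serpina1a turned to -0.55 (limma adjusted p = 0.0134).

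**Figure D3:**
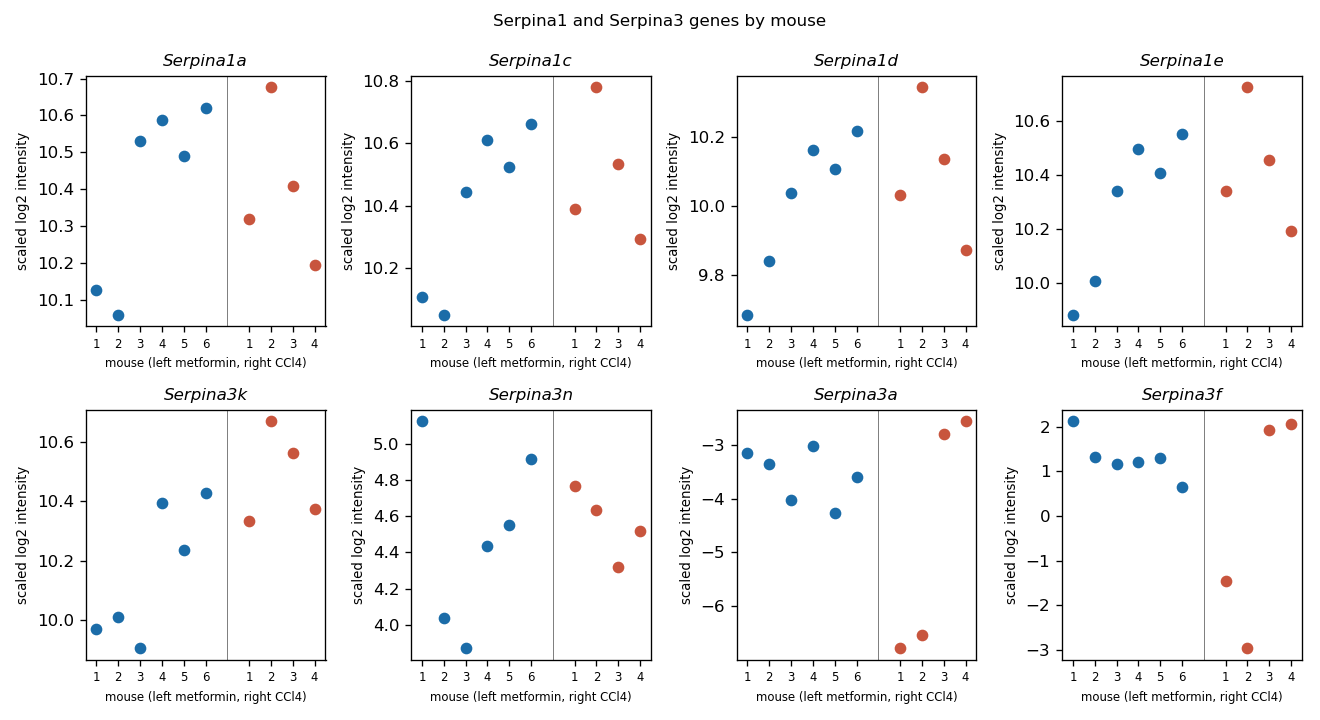
Level of 4 Serpina1 and 4 Serpina3 genes in each mouse (log2 intensity minus the 75th percentile of the array; metformin mice 1 to 6 at the left of each panel, CCl4 mice 1 to 4 at the right). Genes with 2 tested probes are shown by the brighter one. Metformin mice 1 and 2 are low for the Serpina1 genes, and CCl4 mice 1 and 2 are low for Serpina3a and Serpina3f.

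The Serpina3 genes are the mouse counterparts of alpha-1 antichymotrypsin, an acute phase protein that inhibits cathepsin G and related enzymes. Of 9 tested genes in this group 1 fell, Serpina3h, and 0 rose. Serpina3k was at 9.97, 10.01, 9.91, 10.39, 10.24 and 10.43 with metformin and at 10.33, 10.67, 10.56 and 10.38 without. Its metformin livers all lay below the CCl4 mean. The difference was -0.33 ± 0.13 (SE) and missed the threshold (limma adjusted p = 0.0641), and it passed in 9 of 21 alternatives, among them those without metformin mouse 4 or mouse 6. Serpina3n, an inducible member of the group, differed by -0.07 (95% interval -0.60 to 0.45). Serpina3b differed by -0.09, Serpina3c by 0.27, Serpina3m by 0.19 and Serpina3i by -0.52. None of these was called, and on the spike-in scale Serpina3c and Serpina3m turned negative. Without CCl4 mouse 2 Serpina3i was -0.94 (limma adjusted p = 0.0471).

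Serpina3a and the brighter probe of Serpina3f split the CCl4 mice. Serpina3f was at -1.46 and -2.96 in CCl4 mice 1 and 2 and at 1.91 and 2.06 in mice 3 and 4, while the metformin livers ran from 0.65 to 2.12. Serpina3a was at -6.79 and -6.54 in CCl4 mice 1 and 2, where it was not well above background, and at -2.80 and -2.55 in mice 3 and 4. Its metformin livers ran from -4.27 to -3.01, between these pairs. The differences of 1.41 ± 0.90 (SE) for Serpina3f and 1.10 ± 0.83 (SE) for Serpina3a were not called. Leaving out 1 mouse moved Serpina3f between 0.46, without CCl4 mouse 2, and 2.13, without CCl4 mouse 4. The same moved Serpina3a between 0.39, without CCl4 mouse 1, and 1.80, without CCl4 mouse 4. A dimmer probe of Serpina3f went the other way, at -1.24 ± 0.31 (SE, limma adjusted p = 0.0081, fitted per probe). That probe did not split the CCl4 mice in this way: mice 1 to 4 were at -0.44, -1.63, -1.79 and -1.28.

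Acute phase and IL-6 signalling genes, a list of 23 tested, had 5 falls and 0 rises with a median of 0.22. The largest falls were in Il1r1, the interleukin-1 receptor (-1.30 ± 0.29 SE), and Fga, a fibrinogen chain (-1.25 ± 0.20 SE). The other fibrinogen chains, Fgb (-0.03) and Fgg (0.21), were not called. The summed level of the list ran from 11.85 to 12.89 with metformin and from 12.11 to 12.38 without.

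The other tested members of clade A were not called with all 10 mice. Serpina10, the protein Z-dependent inhibitor of activated factor X, differed by 0.46 ± 0.18 (SE), with a dimmer probe at -0.22. Its brighter probe passed the threshold without metformin mouse 2 (0.55, limma adjusted p = 0.0217) or mouse 3 (0.55, limma adjusted p = 0.0274). Serpina11 differed by 0.42 ± 0.18 (SE) and Serpina4-ps1, a pseudogene, by 0.30 ± 0.69 (SE). Without metformin mouse 3 Serpina11 was 0.51 and passed (limma adjusted p = 0.0344). Without CCl4 mouse 4 Serpina4-ps1 was 1.05 and did not (limma adjusted p = 0.140). Without metformin mouse 2 it was -0.01, and without CCl4 mouse 2 -0.02. On the spike-in scale, with all mice, Serpina10, Serpina11 and Serpina4-ps1 were -0.09, -0.13 and -0.25. Serpina12, the adipokine vaspin, differed by -1.76 ± 0.82 (SE) and was not well above background in metformin mouse 1. Without that mouse the difference was -1.05 ± 0.28 (SE) and passed the threshold (limma adjusted p = 0.0135), and on the spike-in scale it was -2.31 with all mice (limma adjusted p = 0.0137). Serpina16 and Serpina3j were not well above background on any array.

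Clade C has the single member Serpinc1, antithrombin, the inhibitor of thrombin and factor Xa. Its level was 9.42, 9.35, 9.44, 9.61, 9.62 and 9.69 in metformin mice 1 to 6 and 9.41, 9.44, 9.22 and 9.32 in CCl4 mice 1 to 4. The metformin values lay at or above the CCl4 mean, with overlap. The difference was 0.18 ± 0.10 (SE) and not called (limma adjusted p = 0.154), and with normexp correction it was 0.30 and called (limma adjusted p = 0.0057). On the spike-in scale it was -0.37. Clade D has the single member Serpind1, heparin cofactor II. Its level was 7.46, 7.48, 7.23, 7.42, 7.35 and 7.51 with metformin and 7.44, 7.55, 7.43 and 7.58 without, and the groups overlapped. The difference was -0.09 (95% interval -0.28 to 0.09) and not called. It was called lower with quantile normalization, at -0.26 (limma adjusted p = 0.0367), and with spike-in scaling, at -0.64 (limma adjusted p = 0.0132).

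From clade E, Serpine2, protease nexin 1, was at -2.16, -2.44, -2.53, -2.75, -2.83 and -2.35 with metformin and at -2.83, -2.07, -1.94 and -2.01 without. CCl4 mouse 1 lay at the bottom of the metformin range and the other 3 CCl4 mice above it. The difference was -0.30 ± 0.19 (SE) and not called, and without CCl4 mouse 1 it was -0.50 (limma adjusted p = 0.0240).

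Clade F has the members Serpinf1, pigment epithelium-derived factor, which blocks vessel growth, and Serpinf2, alpha-2 antiplasmin. Serpinf1 was at 7.87, 8.05, 7.71, 7.62, 7.92 and 7.72 with metformin and at 7.99, 8.14, 7.86 and 8.02 without. The groups overlapped, with a difference of -0.19 ± 0.10 (SE) that was not called. A dimmer probe of it was called lower, at -0.60 ± 0.15 (SE, limma adjusted p = 0.0096, fitted per probe), and the mean of its probes gave -0.39 (limma adjusted p = 0.0260). Serpinf2 was at 8.32, 8.25, 8.25, 8.55, 8.51 and 8.69 with metformin and at 8.41, 8.38, 8.16 and 8.28 without. The groups overlapped, with a difference of 0.12 (95% interval -0.12 to 0.37), and on the spike-in scale it turned to -0.43 (limma adjusted p = 0.0363). Clade G has the single member Serping1, C1 inhibitor, at 8.16, 7.77, 7.56, 7.97, 7.87 and 7.87 with metformin and 7.60, 7.95, 7.66 and 7.68 without. The groups overlapped. Its difference was 0.14 (95% interval -0.13 to 0.42), its dimmer probe gave -0.29, and on the spike-in scale it was -0.41. Clade I, Serpini1 and Serpini2, had 2 genes on the array, and neither was tested. Of the 10 genes of clades C to I on the array 8 were tested, with 1 fall and 0 rises and a median of -0.07. That is 12.5% called, where 45.4% of all features were.

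**Figure D4:**
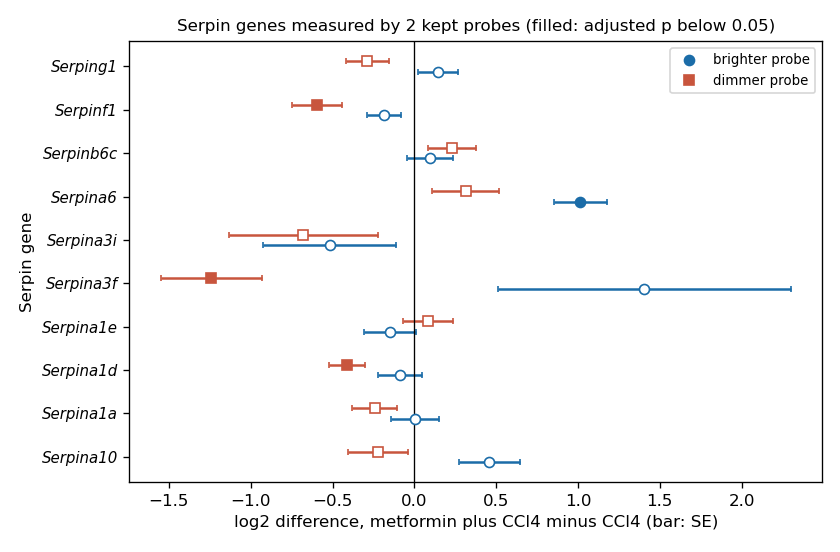
Log2 difference (metformin plus CCl4 minus CCl4) of the 10 Serpin genes with 2 tested probes, the brighter probe as a circle and the dimmer as a square, with SE bars; filled symbols are called in the fit over all probes. The probes of Serpina3f lie 2.65 apart on opposite sides of 0, while those of Serpinb6c lie on the same side.

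In all, 10 members had 2 tested probes. The signs were opposite in 5 of them and the call differed in 4, and the gap between probes ran from 0.14 to 2.65. The 4 were Serpina1d, Serpina3f, Serpina6 and Serpinf1. Which transcripts each probe reads was not tested.

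Clade B, the intracellular serpins, had 27 genes on the array, and 8 were tested: 0 rose, 1 fell and 7 were not called, with a median of 0.10, equal to that of all features. That is 12.5% called, where 45.4% of all features were. Serpinb6b, an intracellular inhibitor, is the fall given above. Serpinb6a and Serpinb6c differed by 0.04 and 0.10. Serpinb9, an inhibitor of granzyme B, differed by -0.12 (95% interval -0.51 to 0.28), and Serpinb1a, an inhibitor of neutrophil proteases, by 0.12 (95% interval -0.27 to 0.52). Serpinb8 differed by 0.56 ± 0.29 (SE), and without metformin mouse 3 by 0.77, past the threshold (limma adjusted p = 0.0087). Serpinb3c and Serpinb3d, of the squamous cell antigen group, differed by 0.10 and 0.33. On the spike-in scale Serpinb1a, Serpinb3c, Serpinb3d, Serpinb6a and Serpinb6c turned negative, and Serpinb8 was at 0.01.

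The 23 untested members were mostly of clade B, and 18 of the 23 were well above background on no array. These were Serpinb10, Serpinb12, Serpinb13, Serpinb1b, Serpinb1c, Serpinb2, Serpinb3a, Serpinb3b, Serpinb5, Serpinb6d, Serpinb6e, Serpinb7, Serpinb9b, Serpinb9c, Serpinb9d and Serpinb9g, with Serpina16 and Serpina3j. The other 5, seen on some arrays, were Serpinb11, Serpinb9e, Serpinb9f, Serpini1 and Serpini2. Squamous epithelial markers, of which 4 were tested, had no call and a median of 0.13, and Dsg3 and Krt4 were well above background on no array.

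Of the proteases that serpins trap, 23 were tested, and 3 rose and 4 fell, with a median of -0.01, where 28.0% of all features rose and 17.4% fell. The rises were in F2, prothrombin (0.39), Hpn, hepsin (0.42), and Ctsb, cathepsin B (0.29), and on the spike-in scale they turned to -0.16, -0.13 and -0.26. St14, matriptase, differed by -1.38 ± 0.31 (SE, limma adjusted p = 0.00435). Plat, tissue plasminogen activator, differed by -2.27 ± 0.57 (SE, limma adjusted p = 0.00819), but it was well above background on only 1 of 6 metformin and 3 of 4 CCl4 arrays, so the size of its fall is uncertain. Cofactors and receptors of serpins had 2 rises and 3 falls of 12 tested, with a median of -0.14. The rises, in the asialoglycoprotein receptor subunits Asgr1 (0.43) and Asgr2 (0.37), turned to -0.12 and -0.18 on the spike-in scale. Plaur, the urokinase receptor, differed by -1.38 ± 0.16 (SE, limma adjusted p = 0.000124) and Sdc1, a heparan sulfate proteoglycan, by -1.22 ± 0.18 (SE, limma adjusted p = 0.000468).

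Markers of the cells that could supply these transcripts moved as follows, with summed levels given as ranges. Such a sum mostly follows its brightest genes, such as S100a9 for neutrophils and Cd4 for lymphocytes. Of all features, 28.0% were called higher and 17.4% lower. Hepatocyte markers had 1 rise and 4 falls of 9 tested with a median of -0.32, the largest falls in Tat (-1.36) and Cps1 (-0.75); the rise was in Asgr1, which turned on the spike-in scale as given above. Their summed level was 11.76 to 12.07 with metformin and 12.09 to 12.38 without, and the groups did not overlap. In every list that follows they did. Neutrophil markers had 5 falls of 8 with a median of -1.38, the largest in Retnlg (-1.89) and Ngp (-1.82), and summed to 3.24 to 5.52 with metformin and 5.07 to 6.12 without. Macrophage markers had 4 falls of 8 with a median of -0.49 (C1qb at -1.22 and Cd14 at -0.90), and summed to 5.67 to 6.50 and 6.22 to 6.55. Endothelial markers had 3 falls of 8 with a median of -0.33 (Vwf at -1.28 and Pecam1 at -0.88), and summed to 5.67 to 6.42 and 6.19 to 6.46. Bile duct markers had 1 rise and 4 falls of 7 with a median of -1.14 (Epcam at -1.46 and Krt19 at -1.17), and summed to 1.15 to 3.41 and 2.72 to 3.73. Epcam was well above background on only 1 of 6 metformin and 3 of 4 CCl4 arrays, so the size of its fall is uncertain. Mesothelial markers had 1 fall of 4 with a median of -0.65 (Upk3b at -1.49), and summed to -0.18 to 1.26 and 0.62 to 1.84. Platelet markers had 2 falls of 5 with a median of -0.45 (Itga2b at -1.16 and Ppbp at -0.71), and summed to 1.27 to 2.36 and 1.86 to 2.44; Gp1ba was well above background on no array. Lymphocyte markers had no call among 5, with a median of 0.13, and summed to 4.70 to 5.62 and 5.03 to 5.49. Acinar pancreas markers had no call among 3, with a median of -0.28, and summed to 0.23 to 1.02 and 0.51 to 1.06; Cpb1, Prss2 and Pnlip were well above background on no array. The part of any of these cells in the Serpin values was not tested.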

How the data were processed

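Liver RNA of 10 mice (6 metformin plus CCl4, 4 CCl4) with an integrity number above 8 was measured, 100 ng per array, as the labels' protocols state. Spot intensity in the deposited files is on a linear scale, background-subtracted by Feature Extraction 10.7.3.1, per the file headers. The authors' deposited table holds log2 values of 4595 probes, whose columns follow the scanner values of the same arrays (r at least 0.9997); its centring is unstated.

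Irregular spots (135 to 179 per array) were left out, spots of a probe averaged, and the log2 processed intensity taken minus the 75th percentile over non-control spots. A gene was its tested probe with the highest mean over all arrays; unnamed probes were kept by accession. Groups were compared with limma 3.58.1 in R 4.3.3 (lmFit, eBayes, two-sided), Benjamini-Hochberg adjusted over 22184 features; 2 probes of a gene were compared in a fit over 29576 probes. The code was tested on simulated data. Alternatives were normexp background correction (offset 50), which used median signals because the files have no mean column, median, spike-in (276 control spots) and quantile scaling, other filters, the mean of probes, slide row, mouse number as a block and leaving out each mouse. Symbols came from RefSeq accessions (28664 of 55681 probes named); 11 of the 61 members matched no promoter. The array was designed on another genome build, so promoter coordinates are RefSeq's.

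Members and lists were chosen with earlier results of these data known. Named with values were the called members, those of clades C to I, the tested Serpina1 and Serpina3 genes, members whose probes disagreed, and the 2 largest called changes per list; other tested members were named after their values were seen. The values of 1 tested member, and of 1 list of genes tied to it, are not reported here; the member is kept in the counts.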

Additional observations from a re-analysis of the deposited data

Results flagged for a closer look

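Within single groups, 6 of 76 sets of values (38 genes in each group) held a mouse farther from the rest than Dixon's limit allows, which is 7.89%, where chance gives about 1 in 20. Serpina10 was at 6.77 in CCl4 mouse 1, below the other CCl4 mice at 6.96 to 6.98. Serpina12 was at -6.94 in metformin mouse 1, below the others at -3.16 to -1.96. Its difference passed the threshold without that mouse and not with it. Serpina4-ps1 was at 7.94 in CCl4 mouse 4, above the others at 4.74 to 5.16. Serpina5 was at -4.85 in metformin mouse 3, below the others at -2.71 to -2.12, and its fall was called with and without that mouse. Serpinb3d was at -6.67 in metformin mouse 3, below the others at -4.24 to -3.20. Serpine2 was at -2.83 in CCl4 mouse 1, below the others at -2.07 to -1.94. Serpina12, Serpina5 and Serpinb3d were not well above background in the metformin mouse named for each. The cause was not tested for any of the 6.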

How the results depend on the processing

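Of the 7 called genes, Serpinh1 was called in each alternative run. The count of members called higher, 1, was 3 with normexp correction, 0 with spike-in scaling, 2 with no filter on dim probes and 2 in slide row 1 alone. The count called lower, 6, was 18 with spike-in scaling, 3 with no filter (61 genes tested) and 3 in slide row 1 alone. It was 9 with quantile normalization and 7 with normexp correction, median scaling or the mean of probes. With slide row as a covariate it was 5, as with only probes well above background on all 10 arrays. Of all features, 45.4% were called in the main fit, 25.1% with no filter, 28.2% in row 1 alone and 32.8% with the covariate. That share was 41.4% with normexp correction, 40.4% with median, 44.1% with quantile and 47.6% with spike-in scaling. It was 45.0% with the mean of probes and 47.0% with only probes well above background on all arrays. Leaving out 1 mouse gave 1 to 4 members higher (2 without metformin mouse 2, 4 without metformin mouse 3). It gave 3 to 6 lower (3 without metformin mouse 2, CCl4 mouse 2 or CCl4 mouse 3). In those fits 38.7% to 44.1% of all features were called. The median of clade A moved from -0.08 to -0.63 with spike-in scaling. That of clade B moved from 0.10 to -0.45 with it, and to 0.30 with slide row as a covariate or in row 1 alone. That of clades C to I moved from -0.07 to -0.62 with spike-in scaling and to -0.18 with quantile normalization. Serpina1a (-0.55) and Serpinf2 (-0.43) reversed with spike-in scaling and Serpina3f (-1.24) with its dimmer probe. The cause was not tested.

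Mouse numbers did not pair the mice: same-numbered mice correlated at -0.14, -0.12, 0.09 and -0.003 in their deviations from the group means. With the number as a replicate block (mice 1 to 4 of each group), 1 member was called higher and 3 lower, against 1 and 6 in those mice without the block. Of all features, 30.7% were called with the block and 39.1% without it. That unblocked fit and the fit per probe were chosen after seeing the data. Signal close to background limits Serpina12, Serpina3a, Serpina5 and Serpinb3d, which were below it on 1 to 3 arrays.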

Other observations

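Protease inhibitors that are not serpins were listed for comparison. Of 22 tested, 1 rose and 3 fell, with a median of -0.06. Tfpi2, a Kunitz inhibitor, differed by -0.77 ± 0.18 (SE, limma adjusted p = 0.0051), and Spint2, which inhibits hepsin and matriptase, by -0.69 ± 0.13 (SE, limma adjusted p = 0.00151). The rise was in Itih4 (0.52), an inter-alpha-trypsin inhibitor chain, which was -0.03 on the spike-in scale. A2m and Wap were well above background on no array.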
